A study of Mus musculus with 6 samples.

Results

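D2.OR, a mouse mammary carcinoma line, carried a lentiviral hairpin against Slx4ip (shSLX4IP, 3 libraries) or a scrambled, non-targeting hairpin (Scram, 3 libraries). Cells of both groups were selected with puromycin and kept for 7 days on solidified basement membrane extract (Cultrex), in medium with 10% serum and 5% Cultrex, before poly(A) RNA was sequenced. The genes described here are the 7 subunits of respiratory complex I that the mitochondrial genome encodes: mt-Nd1, mt-Nd2, mt-Nd3, mt-Nd4l, mt-Nd4, mt-Nd5 and mt-Nd6. They were chosen by Ensembl identifier, without regard to its version, as 7 of the 53647 features of the deposited table, and all 7 had a row with a mean above the filter on low values. They are also 7 of the 13 protein genes of the mitochondrial genome. The labels call the 3 libraries of a group biological replicates and name no separate cultures, 1 hairpin stands for each group, and the p-values measure only the spread between these libraries.

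Complex I (NADH:ubiquinone oxidoreductase) takes electrons from NADH, passes them to ubiquinone and pumps protons across the inner mitochondrial membrane. Its mitochondrially encoded subunits form the core of the membrane arm, and the remaining subunits come from nuclear genes. The mitochondrial genome is read as long RNAs from both strands, which are cut, mostly at transfer RNAs, into messages that then receive poly(A) tails. The message of mt-Nd6 is the one protein message read from the opposite strand, and in human cells it lacks a stable poly(A) tail. The reading frames of mt-Nd4l and mt-Nd4 share 1 message, as do those of mt-Atp8 and mt-Atp6.

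The openings of the 7 genes are shown because each gene is read by its own sequence, and all but mt-Nd3 overlap a neighbouring gene. They are GENCODE M21 transcripts on GRCm38, 5′ to 3′ on the gene's own strand, and the capitals mark the first codon.
mt-Nd1, chrM:2751-2780, plus strand: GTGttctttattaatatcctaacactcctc
mt-Nd2, chrM:3914-3943, plus strand: ATAaatcctatcacccttgccatcatctac
mt-Nd3, chrM:9459-9488, plus strand: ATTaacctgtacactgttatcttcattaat
mt-Nd4l, chrM:9877-9906, plus strand: ATGccatctaccttcttcaacctcaccata
mt-Nd4, chrM:10167-10196, plus strand: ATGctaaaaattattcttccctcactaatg
mt-Nd5, chrM:11742-11771, plus strand: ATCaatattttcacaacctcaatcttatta
mt-Nd6, chrM:14041-14070, minus strand: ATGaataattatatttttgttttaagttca

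The genes are 957 (mt-Nd1), 1038 (mt-Nd2), 348 (mt-Nd3), 297 (mt-Nd4l), 1378 (mt-Nd4), 1824 (mt-Nd5) and 519 (mt-Nd6) bases long, each without an intron. In mt-Nd6, 28.1% of the bases were G and 5.97% were C, whereas G made up at most 11.6% (mt-Nd1) of any of the other 6 genes.

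Overlaps between neighbouring protein genes are shown in capitals, because a read that covers one also covers part of the neighbouring gene. The first pair shares a strand and the second does not. The overlap of mt-Nd4l and mt-Nd4 spans 7 bases and that of mt-Nd5 and mt-Nd6 spans 14. Not shown are overlaps of 2 bases with transfer RNA genes, of mt-Nd1 with mt-Ti and of mt-Nd2 with mt-Tw. Whether the authors' counting used strand is not given in the sources used here.
mt-Nd4l/mt-Nd4, chrM:10147-10193, plus strand: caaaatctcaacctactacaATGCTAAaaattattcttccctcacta
mt-Nd5/mt-Nd6, chrM:13537-13580, plus strand: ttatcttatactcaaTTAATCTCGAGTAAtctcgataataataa

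Copies of mitochondrial DNA in the nuclear genome touch 6 of the 7 genes. Among the nuclear transcripts of GENCODE M21, mt-Nd4l had an identical copy over 294 of its 297 bases (Gm10222) and mt-Nd4 one over 876 of its 1378 bases (Gm28439). For mt-Nd3 the copy Gm28438 was 99.7% identical over 345 bases. All 3 copies lie on chromosome 1. The closest copies of mt-Nd2, mt-Nd5 and mt-Nd6 were 96.7%, 95.2% and 93.6% identical, and mt-Nd1 had none of at least 90% identity over 100 bases. How reads that fit a gene and its copy were counted is not given in the sources used here, so the levels of mt-Nd3, mt-Nd4l and mt-Nd4 carry this uncertainty in every library.

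The deposited values, called normalised counts here, are numbers of reads after division by a factor for library size. Between 5433573 and 6693111 whole reads were recovered per library. A read was worth 1.46 normalised counts in Scram A and 0.796 to 0.976 in the other 5 libraries, so levels in Scram A depend most on its size factor. Scram A also had fewer features above 0, 8464 against 10548 to 11611 in the other 5 libraries, at 6110599 reads. No size factor removes this, and its part in the values of Scram A was not tested. The identifiers of many nuclear rows cannot be read as genes, since Actb, Eef1a1, Rplp0 and Ppia, which every cell uses, are listed at 0 in all 6 libraries. The rows of the 4 epithelial markers looked at cannot be read as genes either: Krt8 and Epcam are listed at 0 in all libraries, Krt18 in 5 of 6, and Cdh1 at 484 to 585 in shSLX4IP and 380.2 to 728 in Scram. So neither the cell type nor the depletion could be checked, and Slx4ip itself is listed at 0 in every library. Of the stromal and immune markers looked at (Col1a1, Col1a2, Pdgfra and Ptprc), Col1a2, a collagen gene of fibroblasts, alone lies where rows were taken as readable. Col1a2 was at 273, 302 and 239 normalised counts in shSLX4IP A, B and C, against 20226, 24482 and 25022 in Scram A, B and C. The groups were far apart for this marker, and its part in the differences given for complex I was not tested. Among the mitochondrial rows, mean levels ran from 2353 to 166326 normalised counts in the 13 protein genes and from 0.710 to 1413 in the 22 transfer RNA genes, and the 2 ribosomal RNAs, at 4062 and 4221, lay within the range of the protein genes. Libraries are named by the letters of their columns, which are not tied to the replicate numbers of the labels.

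Of the 7 genes, 4 were lower in shSLX4IP and 0 were higher at an adjusted p under 0.05. The test was limma on log2(normalised count + 1) with Benjamini-Hochberg adjustment over all 8127 features with a mean of at least 10. Over these features 11.3% were called lower and 11.7% higher. At an unadjusted p under 0.05 limma put 5 of the 7 lower and 0 higher, against 18.1% of all features lower and 20.6% higher. On the recovered reads edgeR called 3 of the 7 lower and 0 higher, against 10.5% and 8.76% of all 8127 features. DESeq2 called 5 of the 7 lower and 0 higher, against 20% and 19.7%. The median log2 fold change (shSLX4IP over Scram) was -0.61 over the 7 genes and 0.25 over all features tested. The groups did not overlap, with shSLX4IP lower, in 5 of the 7 genes, against 23.4% of all features, and with shSLX4IP higher in 0 of 7, against 30.2%. In either direction 53.5% of all features did not overlap. Without Scram A limma called 5 genes lower (19.4% of all features), without Scram C 2 (6.02%), and without any 1 of the shSLX4IP libraries 1, which was mt-Nd1 (5.04% to 5.14%). In RNA from bulk culture, fewer cells with a message and less of it per cell cannot be told apart.

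mt-Nd1, whose product helps to form the ubiquinone site at the foot of the membrane arm, had the most stable difference of the 7. It was at 13933, 14545 and 13512 normalised counts in shSLX4IP A, B and C, against 42182, 39698 and 41169 in Scram A, B and C. The groups lay far apart and, in normalised counts, Scram A stood beside Scram B and C. In reads Scram A had 28806, against 42496 and 45169 in Scram B and C. The mean in shSLX4IP was 0.341 times that in Scram, and the log2 fold change was -1.55 (SE 0.10, 95% interval -1.79 to -1.32, limma adjusted p = 0.000508). It kept its call in all 17 other settings for the deposited values, with log2 fold changes between -1.58 and -1.02.

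mt-Nd3 encodes a small subunit with a loop at the junction of the 2 arms, which changes its position between the active and the deactive state of the enzyme. Its level was 940.3, 1145 and 749 normalised counts in shSLX4IP A, B and C, against 9631, 3382 and 3811 in Scram A, B and C. Every shSLX4IP library lay below every Scram library, and Scram A stood far above Scram B and C. The log2 fold change was -2.42 (SE 0.44, limma adjusted p = 0.0150). Leaving out Scram A gave -1.95 at an adjusted p = 0.00199. The call was lost without any 1 shSLX4IP library, at adjusted p between 0.0551 and 0.0727.

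The antiporter-like subunits mt-Nd2, mt-Nd4 and mt-Nd5 carry proton channels of the membrane arm. mt-Nd2 was at 11793, 11971 and 10446 normalised counts in shSLX4IP A, B and C, against 14606, 19556 and 18464 in Scram A, B and C. The groups were apart, with Scram A nearest to shSLX4IP. Its log2 fold change was -0.61 (SE 0.15, limma adjusted p = 0.0377). It failed to pass in 12 of the 17 other settings, which include leaving out any 1 library but Scram A (adjusted p from 0.0782 to 0.162) and edgeR (adjusted p = 0.0703).

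mt-Nd4 was at 15135, 14940.4 and 13512 normalised counts in shSLX4IP A, B and C, against 16824, 22814 and 20667 in Scram A, B and C. The groups did not overlap, and the gene did not pass (log2 fold change -0.46, SE 0.15, limma adjusted p = 0.0770). Without Scram A it passed, at -0.58 and an adjusted p = 0.00526, and DESeq2 also called it (adjusted p = 0.00658). For mt-Nd5 the values were 14411, 13520.0 and 12196 normalised counts in shSLX4IP A, B and C, against 10368, 20177 and 14233 in Scram A, B and C. Scram A lay below the 3 shSLX4IP libraries and Scram B above them. The log2 fold change of -0.11 had a 95% interval from -0.74 to 0.52 (limma adjusted p = 0.763) and turned to 0.14 without Scram B.

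mt-Nd4l, a small subunit of the membrane arm, was at 2714, 2566 and 2513 normalised counts in shSLX4IP A, B and C, against 351, 3573 and 2401 in Scram A, B and C. The groups overlapped, because Scram A lay below every other library, with 240 reads. The log2 fold change was 0.84 with a 95% interval from -1.30 to 2.99 (limma adjusted p = 0.485), and it turned to -0.17 without Scram A.

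mt-Nd6, the membrane arm subunit of the opposite strand, was at 3624, 3747 and 3091 normalised counts in shSLX4IP A, B and C, against 15352, 6339 and 6944 in Scram A, B and C. The groups were apart and Scram A was the highest. The log2 fold change was -1.34 (SE 0.36, limma adjusted p = 0.0478). Leaving out Scram A gave -0.93 at an adjusted p = 0.00298. The gene failed to pass in 8 of the 17 other settings, which include leaving out Scram C (adjusted p = 0.0835) or any 1 shSLX4IP library (0.139 to 0.164). In normalised counts, transfer RNA genes of both strands were also mostly highest in Scram A, 8 of 8 on the strand of mt-Nd6 and 12 of 14 on the other. Among those with a mean of at least 10 these were 7 of 7 and 8 of 9. For mt-Tp this rests on the size factor, since it had 78 reads in Scram A and 90 to 140 in the other libraries. The same holds for mt-Tf, mt-Tv and mt-Tm of the other strand. These had 2, 1 and 8 reads in Scram A, and as many or more in at least 1 other library. The share of all features highest in Scram A was not counted. Relative to Scram B and C averaged, Scram A stood at 2.31 for mt-Nd6 and at 1.35 (mt-Tp) to 5.71 (mt-Tq) for the 8 transfer RNA genes of its strand. On the other strand it stood at 0.330 (mt-Tl1) to 5.50 (mt-Ti). The 2 highest ratios rest on few reads: 18 in Scram A for mt-Tq and 26 for mt-Ti. The part of these Scram A levels in the mt-Nd6 difference was not tested.

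The spread within a group differed between the groups. The coefficient of variation of the 7 genes was 3.71% (mt-Nd1) to 20.96% (mt-Nd3) in shSLX4IP and 3.05% (mt-Nd1) to 77.3% (mt-Nd4l) in Scram. The ratio of Scram A to Scram B and C averaged came to 0.118 for mt-Nd4l, 0.603 for mt-Nd5, 0.768 for mt-Nd2, 0.774 for mt-Nd4, 1.04 for mt-Nd1, 2.31 for mt-Nd6 and 2.68 for mt-Nd3. The longest gene, mt-Nd5, was thus low in Scram A, while the 3 shortest included the lowest and the highest of these ratios.

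Levels per kilobase of gene put the genes on a common scale of length and gave another order in each group. They do not allow for the nuclear copies or for uneven reads along a message. In shSLX4IP mt-Nd1 led with 14626 ± 543 normalised counts per kb (mean ± SD, n = 3), followed by mt-Nd2, mt-Nd4, mt-Nd4l, mt-Nd5, mt-Nd6 and last mt-Nd3 with 2715 ± 569. There mt-Nd2 overlapped mt-Nd4, and mt-Nd5 overlapped mt-Nd6, and the other neighbours were apart. In Scram mt-Nd1 led with 42859 ± 1305 normalised counts per kb, and mt-Nd6 (18392 ± 9707), mt-Nd2, mt-Nd3 and mt-Nd4 followed, each overlapping the next. mt-Nd5 and mt-Nd4l came last in Scram and overlapped each other. mt-Nd1 was thus first in each group, and mt-Nd3 had rank 7 in shSLX4IP and rank 4 in Scram. The Scram order rested in part on Scram A: mt-Nd3 had rank 7 in every shSLX4IP library and ranks 3, 7 and 5 in Scram A, B and C. mt-Nd6 had rank 6 in every shSLX4IP library and ranks 2, 4 and 4 in Scram A, B and C. Without Scram A the Scram mean of mt-Nd3 was 10334 normalised counts per kb (rank 5), against 16114 with it, and that of mt-Nd6 was 12797 (rank 4).

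**Figure D1:**
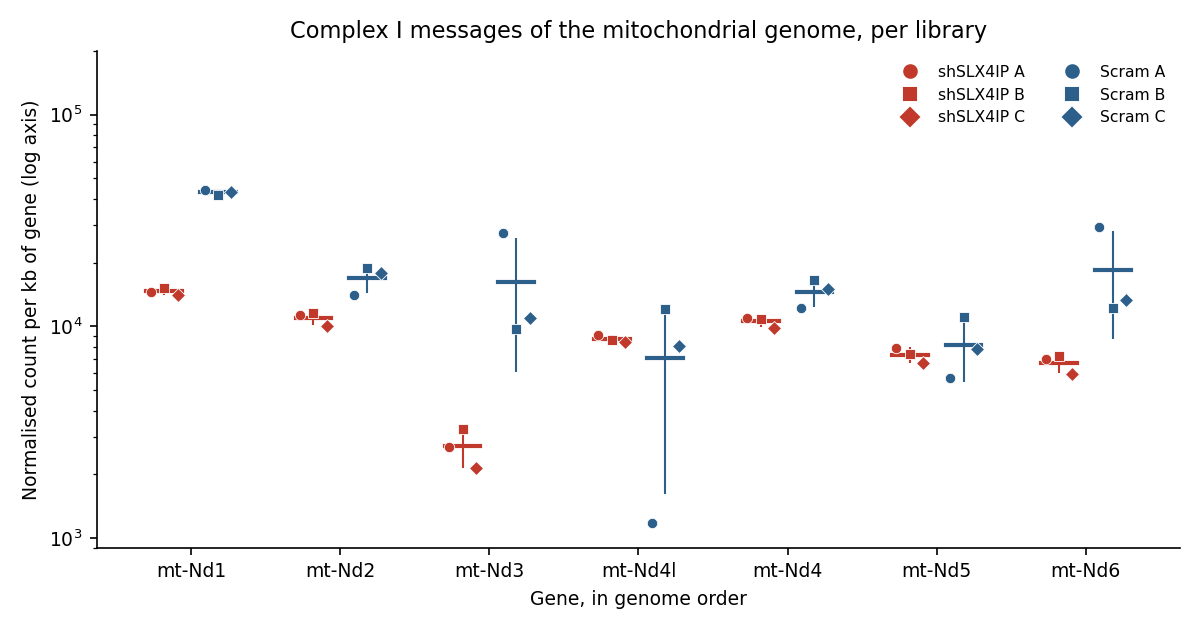
Normalised counts per kb of gene (log axis) for the 7 complex I genes in genome order, with a point per library, shSLX4IP left of Scram; horizontal bars are group means and vertical lines the SD (n = 3 each). The groups of mt-Nd1 lie apart and close together within, while Scram A (circles) is the lowest of all libraries for mt-Nd4l, at 351 normalised counts before division by length, and the highest for mt-Nd3 and mt-Nd6.

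Shares within the mitochondrial messages do not depend on the size factors. The 7 genes together made up 18.0%, 17.8% and 16.7% of the summed normalised counts of the 13 protein genes in shSLX4IP A, B and C, against 23.9%, 27.7% and 26.6% in Scram A, B and C. The groups did not overlap, and the difference was -8.58 percentage points (exact permutation test over the 6 libraries, 2-sided, p = 0.1, the smallest that 3 libraries against 3 can give). It lay between -9.65 and -7.78 without 1 library, and it was -8.43 with values per kb.

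The difference changed when mt-Co1 was left out, the catalytic subunit of cytochrome c oxidase in complex IV. mt-Co1 alone made up 54.8%, 54.5% and 55.1% of the 13 genes in shSLX4IP A, B and C, against 29.1%, 36.7% and 35.9% in Scram A, B and C. With mt-Co1 left out of the sum, the 7 complex I genes made up 39.8%, 39.1% and 37.3% in shSLX4IP, against 33.8%, 43.7% and 41.6% in Scram. These groups overlapped, and the difference was -0.94 percentage points (exact permutation test, 2-sided, p = 0.8). Relative to the 6 protein genes that are not of complex I, mt-Co1 among them, the 7 came to 21.2% ± 0.985 in shSLX4IP and 35.3% ± 3.50 in Scram (mean ± SD, n = 3 each).

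**Figure D2:**
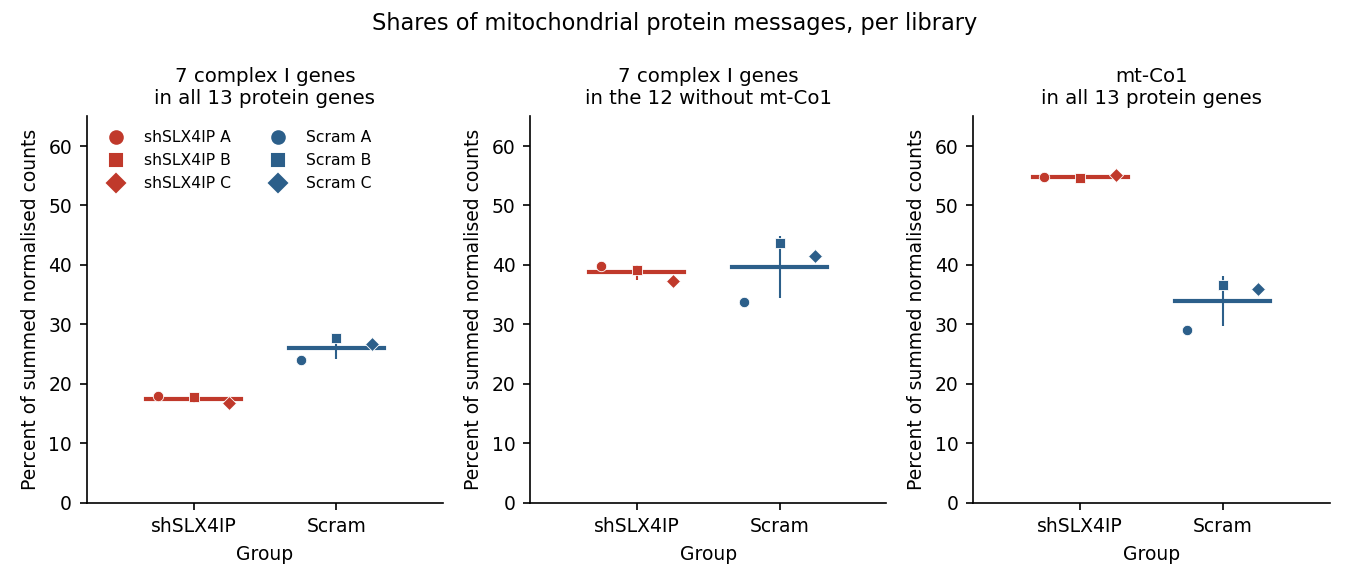
Percent of summed normalised counts per library, shSLX4IP left of Scram, for the 7 complex I genes among all 13 mitochondrial protein genes (left), the same 7 among the 12 genes without mt-Co1 (middle) and mt-Co1 among all 13 (right); bars are means and lines the SD (n = 3 each). The groups are apart on the left and on the right (mt-Co1 54.5% or more in shSLX4IP, 36.7% or less in Scram), and they overlap in the middle.

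Each library was then scaled to the same summed value of the 13 genes and the whole table was tested again with limma. Of the 7 genes, 2 were called lower and 0 higher, against 8.08% of all features called lower and 15.5% higher. The genes called were mt-Nd1, at a log2 fold change of -1.25 (SE 0.09, adjusted p = 0.000847), and mt-Nd3, at -2.12 (SE 0.40, adjusted p = 0.0160). mt-Nd6 was at -1.03 (adjusted p = 0.0659), mt-Nd2 at -0.31 (0.236) and mt-Nd4 at -0.15 (0.519). mt-Nd5 was at 0.20 (95% interval -0.50 to 0.89) and mt-Nd4l at 1.15 (-1.09 to 3.39). Without Scram A 5 genes were called lower, mt-Nd2 (-0.48), mt-Nd4 (-0.33) and mt-Nd6 (-0.68) among them, against 14.3% of all features. Without any 1 shSLX4IP library 1 was called, again mt-Nd1, against 4.02% to 4.09% of all features.

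mt-Nd1 made up 4.01%, 4.14% and 4.04% of the 13 protein genes in shSLX4IP A, B and C, against 9.24%, 9.51% and 10.2% in Scram A, B and C. mt-Nd3 made up 0.271%, 0.326% and 0.224% in shSLX4IP, against 2.11%, 0.810% and 0.943% in Scram. The groups were apart for these 2 genes and for mt-Nd6, at 0.923% to 1.07% in shSLX4IP and 1.52% to 3.36% in Scram, and they overlapped for the other 4. That is 3 of 7 without overlap and lower, against 17.1% of all features on this scale, and 0 of 7 without overlap and higher, against 37.8%. In either direction the share of all features was 54.9%. The direction depended on the denominator: as shares of the 12 genes without mt-Co1, 3 of 7 were apart and lower (mt-Nd1, mt-Nd3 and mt-Nd6) and 3 of 7 apart and higher (mt-Nd4l, mt-Nd4 and mt-Nd5). Over all features scaled to those 12 genes, 9.06% were apart and lower and 53.3% apart and higher.

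Scaled to the 12 genes other than mt-Co1, a choice made after the values were seen, mt-Nd1 was at -0.70 (SE 0.11, limma adjusted p = 0.00677) and mt-Nd3 at -1.57 (SE 0.36, adjusted p = 0.0214). On that scale mt-Nd2 (0.24), mt-Nd4 (0.39), mt-Nd5 (0.74) and mt-Nd4l (1.70) had positive log2 fold changes and did not pass (adjusted p from 0.115 to 0.386), and mt-Nd6 was at -0.48 (adjusted p = 0.204). The fold changes of mt-Nd2 and mt-Nd4 thus changed sign with the gene that the shares were set against, and those of mt-Nd1 and mt-Nd3 did not.

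The median log2 fold change of all features was 0.55 when scaled to the 13 genes and 0.25 as deposited. Relative to that median, mt-Nd1 was at -1.80 on the deposited scale and at -1.79 on the scale of the 13 genes, and mt-Nd5 was at -0.36 and -0.35. Scaling whole libraries moves each feature and the median almost alike, so these pairs had to lie close. Quantile normalization is not bound in this way, and there mt-Nd1 was at -1.02 and mt-Nd5 at 0.53 relative to the median.

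**Figure D3:**
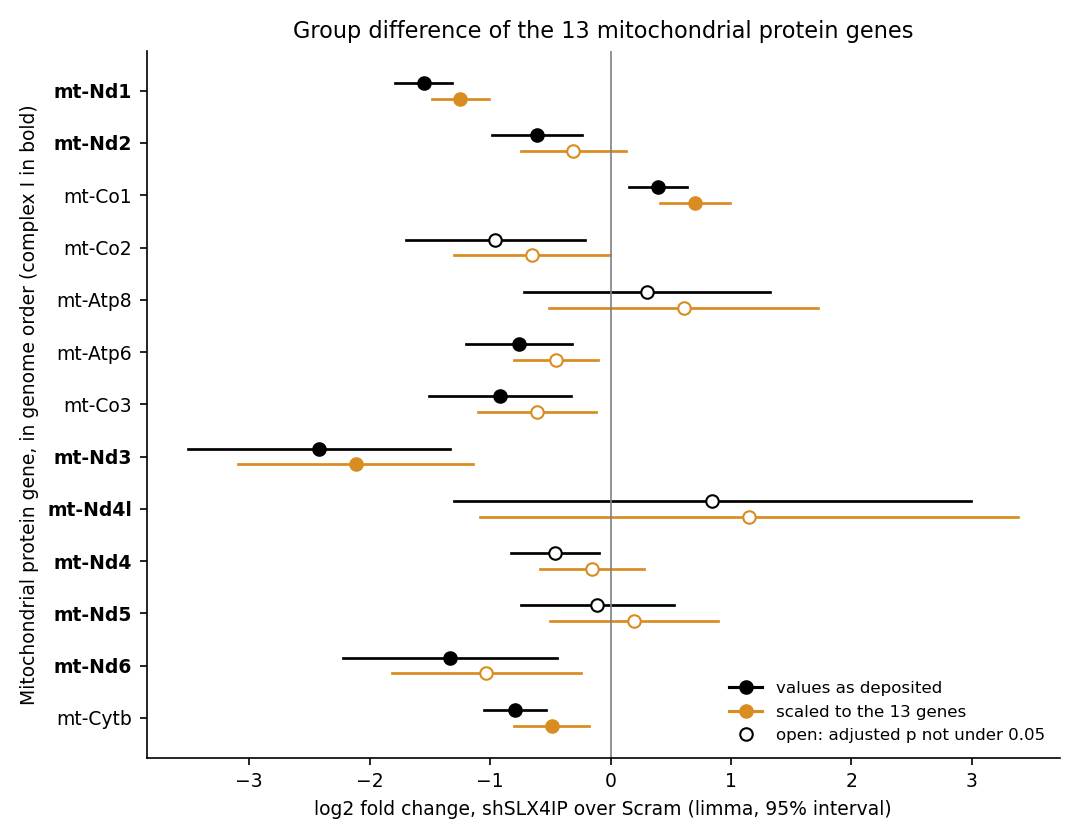
log2 fold change (shSLX4IP over Scram) with its 95% interval from limma for the 13 mitochondrial protein genes in genome order, complex I in bold, as deposited (black) and scaled to the 13 genes (orange); filled points passed at an adjusted p under 0.05. mt-Nd1 and mt-Nd3 are filled on both scales, and the intervals of mt-Nd4l and mt-Nd5 cross 0 on both.

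Ratios between genes of the same library were also free of size factors, and were chosen after the values were seen. mt-Nd1 per mt-Nd2, per kb, was 1.28, 1.32 and 1.40 in shSLX4IP A, B and C, against 3.13, 2.20 and 2.42 in Scram A, B and C. The groups were apart, and the 2 genes are neighbours on the same strand with 3 transfer RNA genes between them. mt-Nd4l per mt-Nd4, 2 reading frames of 1 message, was 0.832, 0.797 and 0.863 in shSLX4IP, against 0.0969, 0.727 and 0.539 in Scram. The frame nearer to the 5′ end was thus lower relative to its partner in every Scram library, and lowest in Scram A.

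The other shared message gave the same order. mt-Atp8 per mt-Atp6, per kb, was 0.607, 0.668 and 0.728 in shSLX4IP A, B and C, against 0.129, 0.571 and 0.441 in Scram A, B and C. Within both messages the upstream frame was lowest relative to the downstream one in Scram A. The part of this in the differences of the 7 genes was not tested. mt-Nd6 per mt-Nd5, whose ends overlap on opposite strands, was 0.884, 0.974 and 0.891 in shSLX4IP, against 5.20, 1.10 and 1.71 in Scram. Each of these ratios was apart between the groups, at the smallest p that the exact permutation test allows here (2-sided, p = 0.1).

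**Figure D4:**
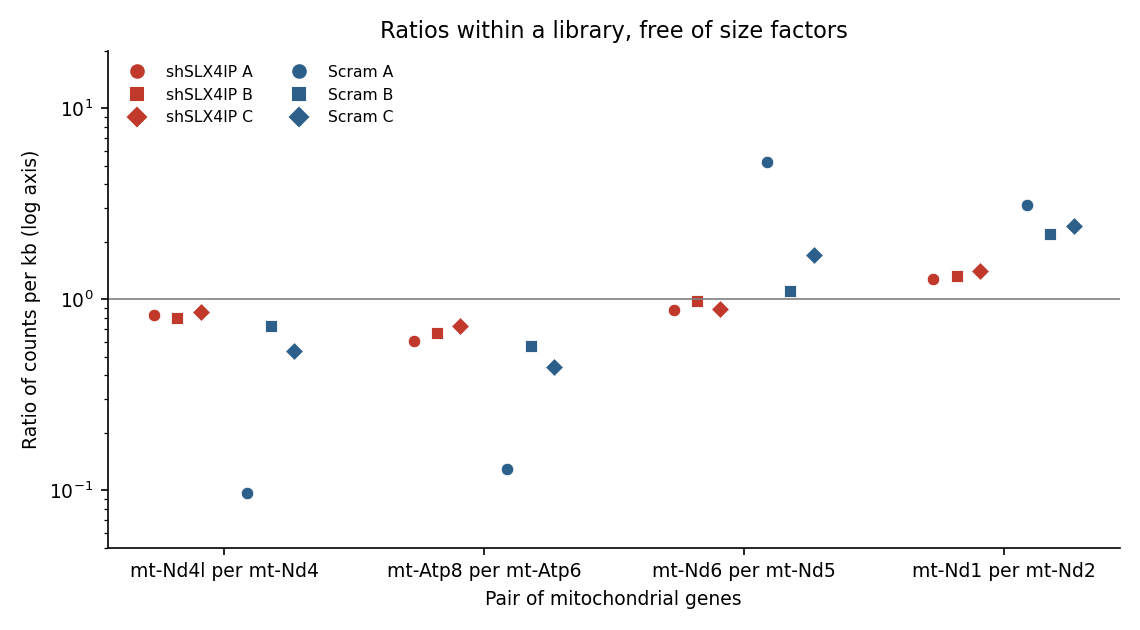
Ratios of normalised counts per kb (log axis) between pairs of mitochondrial genes, 1 point per library, shSLX4IP left of Scram. mt-Nd4l per mt-Nd4 and mt-Atp8 per mt-Atp6 are lowest in Scram A (0.0969 and 0.129), where mt-Nd6 per mt-Nd5 is highest (5.20).

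Of the other 6 mitochondrial protein genes, 3 were lower and 1 higher (mt-Co1) on the deposited scale in the same limma test. Over all features 11.3% were lower and 11.7% higher. The median log2 fold change of these 6 genes was -0.78. Of the ribosomal RNAs, encoded before mt-Nd1, mt-Rnr2 was lower (log2 fold change -0.94, SE 0.12, limma adjusted p = 0.00486) and mt-Rnr1 did not pass (-0.29, adjusted p = 0.499). mt-Rnr2 was at 2903, 2965 and 2807 normalised counts in shSLX4IP A, B and C, against 5481, 6042 and 5129 in Scram A, B and C. mt-Nd1 per mt-Rnr2, per kb, was 7.94 to 8.11 in shSLX4IP and 10.9 to 13.3 in Scram (exact permutation test, 2-sided, p = 0.1).

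The nuclear part of complex I could be read in few rows. Of 53 nuclear subunit and assembly factor genes in the list, 4 had a row taken as readable, within 4 chromosome segments. These segments were picked by runs of high values, and no other check tied their rows to the identifiers. Of the 4 genes, 1 was called lower by limma and 0 higher, against 11.3% and 11.7% of all features. It was Ndufaf4, an assembly factor, at 704, 779 and 774 normalised counts in shSLX4IP A, B and C, against 3378, 1981 and 2430 in Scram A, B and C (log2 fold change -1.75, SE 0.23, adjusted p = 0.00491). Ndufb6, a subunit of the membrane arm, was at 1324, 1121 and 1076 in shSLX4IP, against 7464, 2267 and 2661 in Scram, and did not pass (adjusted p = 0.0598). Ndufaf6 overlapped between the groups. Ndufa5 was listed at 0 in 4 of the 6 libraries, at 1361 in shSLX4IP B and at 2937 in Scram C.

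Features whose profile over the 6 libraries lay nearest to the mean profile of the 7 genes were found by the root mean square difference of centred log2 values. Among the 30 other mitochondrial genes these were mt-Cytb of complex III (0.068), mt-Rnr2 (0.116) and mt-Tr (0.128), the last with 1 to 3 reads per library. Among 378 nuclear features with a readable symbol and a mean of at least 50 they were Nol6 (0.087), Drosha (0.092), Rngtt (0.093), Ccny (0.108) and Ptpn3 (0.127), with a median of 0.639 over all 378. The 7 genes themselves lay between 0.106 (mt-Nd2) and 1.25 (mt-Nd4l) from their own mean profile.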

How the data were processed

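Cells were plated at 31500 per cm2, and their RNA was sequenced after poly(A) selection with a stranded kit, per the labels' protocols. The submitters' processing notes name DESeq2 1.22.1, StringTie 2.1.7, STAR 2.7.7, fastp 0.19.5 and GRCm38, with the role and settings of each not given in the sources used here. Per gene and library, the authors deposited 1 normalised signal value, whose steps are those of whole reads scaled by library. Whole reads were recovered from the step of each column: 99.98% to 100% of values above 0 lay within 0.1 of a whole number.

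Of 53647 identifiers, 52094 matched GENCODE M21 without version. With version 35 matched, all mitochondrial, 6 of them members (mt-Nd4l matched without version). Nuclear symbols were used only inside 4 segments of protein-coding genes on chromosomes 4, 6, 15 and 18. A gene with a mean of at least 1000 scored 3 there, any other -1, and segments scoring at least 30 were kept. Whether each row in a segment belongs to its identifier was not checked in another way. limma 3.58.1 (R 4.3.3, intensity trend) ran on log2(value + 1) for features with a mean of at least 10, without a block. Fold changes on this scale understate the change of low genes. Copies were found with BLAST+ 2.17.0. edgeR 4.0.16 and DESeq2 1.42.0 on the recovered reads were alternatives, edgeR calling 854 of 8127 features lower and 712 higher. The limma step was tested on simulated data with known fold changes. Ratios between genes and scaling to 12 or 6 genes were added after the data were seen. The members, lists, segments and tests were chosen with earlier results of these data known. Named genes are the 7 members, the other mitochondrial protein and ribosomal RNA genes, readable nuclear complex I genes and the nearest profiles.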

Additional observations from a re-analysis of the deposited data

How the results depend on the processing

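No paired analysis was possible because the columns carry letters and no replicate numbers, and no label says that a shared letter marks a pair. The count of complex I genes called lower (4) was 2 without the filter on low values (4.86% of all features, against 11.3%). It was also 2 without the trend in limma (9.3%) and 2 when scaled to the 13 mitochondrial protein genes (8.08%). Without 1 library it was 1 to 5 (5.04% to 19.4%). Scaled to those 13 genes, the count (2) was 1 to 5 without 1 library (4.02% to 14.3%). In every setting run 0 of the 7 genes were called higher, against 5.33% to 30.8% of all features. Signs turned for genes that were not called, or were no longer called: mt-Nd2 was at 0.027 (log2 fold change), mt-Nd4 at 0.17 and mt-Nd5 at 0.52 after quantile normalization, and mt-Nd5 was at 0.24 with equal library totals and 0.20 when scaled to the 13 genes. Without 1 library, mt-Nd4l lay between -0.17 (without Scram A) and 1.497 (without Scram B), and mt-Nd5 between -0.34 (without Scram A) and 0.14 (without Scram B). On the scale of the 13 genes mt-Nd5 lay between -0.090 (without Scram A) and 0.45 (without Scram B). Scaled to the 12 genes without mt-Co1 (added after the values were seen), mt-Nd2 was at 0.24 and mt-Nd4 at 0.39. With mt-Co1 left out of the sum the share of mt-Nd2 differed by 0.97 and that of mt-Nd4 by 2.06 percentage points. The share of mt-Nd5 differed by -0.12 relative to the 6 genes that are not of complex I and, without 1 library, by -0.30 (Scram A) to 0.985 (Scram B). The cause was not tested. The median log2 fold change of all features was 0.58 with equal library totals and -0.0028 after quantile normalization. Over all features DESeq2 called 1624 lower and 1602 higher, against 920 and 952 with limma. The lowest read number behind a value of the 7 genes was 240, for mt-Nd4l in Scram A.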

Other observations

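After poly(A) selection, reads of the transfer RNA genes beside the complex I genes ran from 1 to 3 per library (mt-Tr) up to 119 to 805 (mt-Te). Of 22 transfer RNA genes, 16 were tested as deposited, with a median log2 fold change (shSLX4IP over Scram) of -1.08. limma called 0 of the 16 at an adjusted p under 0.05, against 11.3% of all features called lower and 11.7% higher. At an unadjusted p under 0.05 limma had 7 of the 16, against 18.1% of all features lower and 20.6% higher. On the recovered reads edgeR called 0 of the 16, against 10.5% of all features lower and 8.76% higher. DESeq2 called 7 of the 16, against 20% of all features lower and 19.7% higher. mt-Tl1, which lies between mt-Rnr2 and mt-Nd1, was at 116, 112 and 123 normalised counts in shSLX4IP A, B and C, against 99.6, 311 and 292 in Scram A, B and C. The groups overlapped because of Scram A (log2 fold change -0.83, limma adjusted p = 0.249).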
